A study of Mus musculus with 20 samples.

Results

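Heat shock chaperones were followed in the cerebellum of mice that carry an expanded polyglutamine (polyQ) tract in ataxin-7. The set holds 10 of the 55401 genes in the read count table and was chosen by symbol, each matched to 1 Ensembl gene: Hspa1a, Hspa1b, Hspa8, Hspa4l, Hsph1, Dnajb1, Hsp90aa1, Hsp90ab1, Hspb1 and Hspa5. The rule is a list of names with no threshold on expression, and all 10 passed the filter on low counts in every comparison. RNA-seq was performed on 20 whole cerebella, 1 library per mouse, of C57BL/6J background. SCA7 140Q/5Q knock-in mice, which have 1 Atxn7 allele with an expanded CAG repeat, model spinocerebellar ataxia type 7. The AAV PHP.eB vector, injected into the retro-orbital sinus of young mice, expressed an shRNA from the H1 promoter and eGFP from the CMV promoter. The shA4 hairpin targets CAG repeats, and shSCR, a hairpin of scrambled sequence, is the control.

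The 5 groups were WT mice without shRNA at 9 weeks (n = 3), WT mice with AAV-shA4 at 9 weeks (n = 3), WT mice without shRNA at 25 weeks (n = 4), SCA7 mice with AAV-shSCR at 25 weeks (n = 5) and SCA7 mice with AAV-shA4 at 25 weeks (n = 5). The week is the one in the sample labels, which do not say whether it counts age or time after injection. No WT mouse received a vector at 25 weeks, so the SCA7 allele and the AAV cannot be told apart in a comparison of SCA7 with WT mice. Libraries held 31465586 to 54570503 counts, and at 9 weeks the AAV-shA4 libraries (36245752 to 39208298) were all shallower than the untreated ones (47455917 to 49212593). Atxn7, the targeted gene, was at 37.1 to 42.5 CPM, counts per 1000000 counts of a library, in the untreated mice and 37.7 to 40.7 CPM in the AAV-shA4 mice at 9 weeks. At 25 weeks it was at 45.0 to 49.5 CPM in WT, 44.9 to 52.6 CPM in AAV-shSCR and 43.8 to 51.0 CPM in AAV-shA4 mice, and gene counts do not separate its alleles. CPM were scaled by the trimmed mean of M-values (TMM) over all 20 libraries.

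Chaperones bind unfolded or misfolded proteins and help them to fold, to stay soluble or to be degraded. Hsp70 proteins work in cycles with J-domain partners, which deliver clients, and with Hsp110 proteins, which exchange the bound nucleotide; Hsp90 proteins mature signalling proteins, and small heat shock proteins hold clients without ATP. Misfolded protein in the cytosol can free the factor HSF1, which binds heat shock elements in the promoters of these genes, while in the endoplasmic reticulum (ER) the unfolded protein response raises BiP (Hspa5) and its partners through ER stress elements. Chaperones are known to be recruited to polyQ inclusions, and Purkinje cells, the output neurons of the cerebellar cortex, are among the most vulnerable cells in this disease.

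The promoters of the 3 members that were lower in AAV-shSCR SCA7 mice follow here, since they carry the elements through which chaperone genes are known to be induced. Each is the 250 bases before the RefSeq transcription start (GRCm38.p6), written 5′ to 3′ on the strand of the gene, and capitals mark the motif found. Hspa1b (chr17:34959239-34959488, minus strand) and Hsph1 (chr5:149636337-149636586, minus strand) have a heat shock element of 2 units, written GAANNTTC or TTCNNGAA. Hspa5 (chr2:34771840-34772089, plus strand) has an ER stress element, written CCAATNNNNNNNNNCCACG.
Hspa1b: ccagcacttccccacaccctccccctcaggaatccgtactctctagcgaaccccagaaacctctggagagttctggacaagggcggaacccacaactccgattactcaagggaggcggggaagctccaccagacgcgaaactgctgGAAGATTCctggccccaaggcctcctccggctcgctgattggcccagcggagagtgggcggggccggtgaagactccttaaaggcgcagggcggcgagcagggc
Hsph1: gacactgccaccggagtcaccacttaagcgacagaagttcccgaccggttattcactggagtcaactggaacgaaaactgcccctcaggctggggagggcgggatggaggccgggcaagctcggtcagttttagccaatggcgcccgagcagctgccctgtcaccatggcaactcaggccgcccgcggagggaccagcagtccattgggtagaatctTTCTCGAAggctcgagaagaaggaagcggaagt
Hspa5: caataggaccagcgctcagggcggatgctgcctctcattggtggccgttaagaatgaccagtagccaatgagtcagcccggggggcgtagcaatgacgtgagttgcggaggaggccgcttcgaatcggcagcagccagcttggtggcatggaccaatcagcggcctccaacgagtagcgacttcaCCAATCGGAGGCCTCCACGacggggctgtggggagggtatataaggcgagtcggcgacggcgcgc

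A promoter was found for 7 of the 10 members, and Hspa8, Hsp90aa1 and Hsp90ab1 had none in the table used. The element of 2 units lay upstream in 4 of these 7 (Hspa1a, Hspa1b, Hsph1 and Hspb1), searched on both strands, against 12.8% of 32851 promoters. The Hspa1a promoter differed from that of Hspa1b in 3 of 250 bases and had the same element, GAAGATTC, at positions -104 to -97. Hsph1 was the single member with the longer element of 3 units (GAANNTTCNNGAA or its reverse complement TTCNNGAANNTTC), as TTCTGGAAAGTTC at positions 37 to 49 after the start, a motif held by 0.603% of the 300-base windows that also take in the 50 bases after the start. The 3-unit motif contains the 2-unit one. Upstream of Dnajb1 and Hspa4l none of the 3 motifs was found, which says only that these letters are not in that window. The Hspa5 element lay at -65 to -47 and the same letters were found in 0.113% of promoters.

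Levels within the set differed widely. Divided by the length of the main transcript, in CPM per kb in WT mice at 25 weeks, Hsp90ab1 came first (448), followed by Hspa8 (98.8), Hspa5 (94.5), Hsp90aa1 (37.1), Hsph1 (37.0), Hspa4l (33.7), Dnajb1 (14.1), Hspb1 (2.47), Hspa1a (1.13) and Hspa1b (1.09). Neighbours whose mice overlapped, and whose order is therefore not fixed, were Hspa8 with Hspa5, Hsp90aa1 with Hsph1, and Hspa1a with Hspa1b. In AAV-shSCR SCA7 mice these 3 pairs no longer overlapped: Hspa8 (97.6) stood above Hspa5 (71.8), Hsp90aa1 (35.7) above Hsph1 (32.3), and Hspa1a (1.02) above Hspa1b (0.746), while Hsph1 now overlapped with Hspa4l (31.6). Every library placed Hsp90ab1 above all others, and no group changed the place of Dnajb1 or Hspb1. The stress-inducible Hsp70 transcripts were thus close to the bottom in every condition, SCA7 included.

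**Figure D1:**
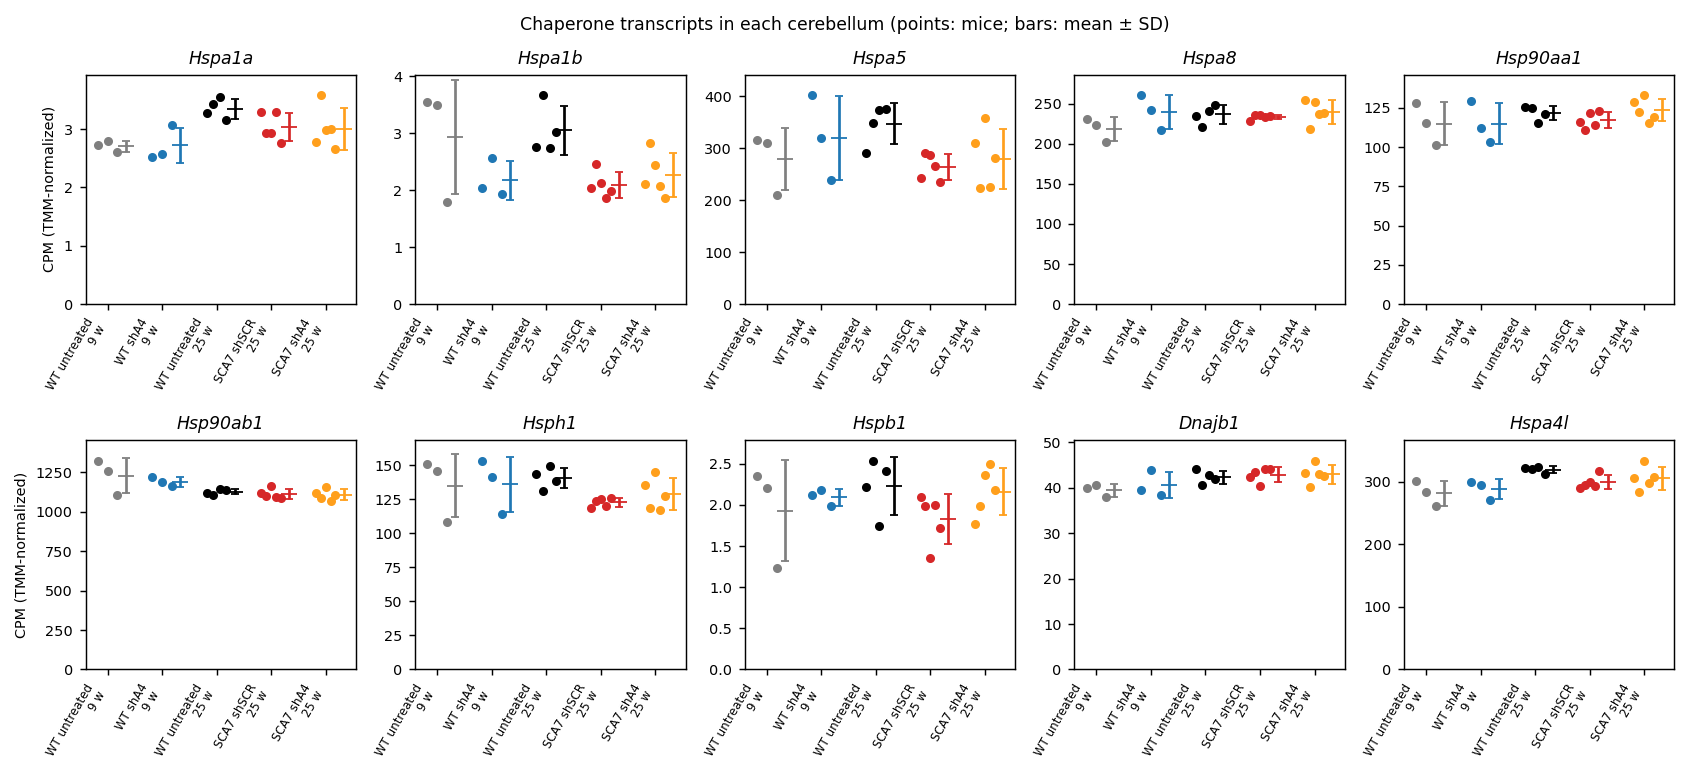
TMM-normalized CPM of the 10 chaperone transcripts, 1 panel per gene, with 1 point per mouse and the mean ± SD of each of the 5 groups (axes start at 0). Hspa1b, Hspa5 and Hsph1 are the genes whose AAV-shSCR SCA7 points all lie below the WT points at 25 weeks.

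The main comparison asked whether chaperone transcripts respond to the polyQ protein at 25 weeks, in AAV-shSCR SCA7 against untreated WT mice. No chaperone of the set rose, and 3 fell: Hspa1b, Hspa5 and Hsph1. With edgeR (quasi-likelihood F-test, p adjusted by Benjamini and Hochberg over all genes), 3 of 10 members were lower at an adjusted p under 0.05, where 8.65% of 14862 tested genes were lower and 15.5% were called in either direction. Past both limits (adjusted p under 0.05 and a change above 1.3-fold) were Hspa1b and Hspa5, 2 of 10, against 4.02% of genes in either direction and 2.66% lower. The same 3 members were the ones whose groups did not overlap, against 16.8% of all genes, 9.33% of them lower. The log2 fold change lay below 0 for 9 of 10 members, as for 49.5% of all genes, and its median was -0.12 over the members and 0.0017 over all genes. DESeq2 also called 3 members, 2 of them past both limits.

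Hspa1b (ENSMUSG00000090877, chr17:34956436-34959238, GRCm38) encodes an inducible Hsp70, a chaperone that cells make at low levels until protein damage induces it. It was at 2.75, 3.66, 2.75 and 3.03 CPM in WT mice and at 2.04, 2.46, 2.13, 1.86 and 1.98 CPM in AAV-shSCR SCA7 mice. Each SCA7 mouse was below each WT mouse, by a log2 fold change of -0.54 (SE 0.14, edgeR adjusted p = 0.0133). These levels rest on as few as 65 reads per library. Without WT replicate 2, the highest WT mouse, the change was -0.44 and missed the limit (edgeR adjusted p = 0.0552).

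Hspa1a (ENSMUSG00000091971, chr17:34969190-34972156) lies next to Hspa1b and encodes a nearly identical protein. It was at 3.27, 3.43, 3.55 and 3.15 CPM in WT mice and at 3.29, 2.93, 2.93, 3.29 and 2.76 CPM in AAV-shSCR mice, so the groups overlapped (log2 fold change -0.14, SE 0.10, edgeR adjusted p = 0.396). Of the 49-base stretches of its transcripts, 60.6% also occur in another gene, as do 62.6% of those of Hspa1b, and 59.1% of those of Hspa1a are shared with Hspa1b itself. Reads from these stretches cannot be assigned to 1 gene, and the values of both are uncertain to that extent. With the reads of both genes summed, an alternative chosen after the data were seen, the change in AAV-shSCR mice was -0.32 (SE 0.095, edgeR adjusted p = 0.0311). This summed change was under the 1.3-fold limit, unlike that of Hspa1b alone. Hspa1a also overlaps Gm20481 on the other strand, a gene with a median of 1 count.

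Hspa8 (ENSMUSG00000015656, chr9:40800984-40810087) encodes Hsc70, the constitutive Hsp70 that also uncoats clathrin vesicles at synapses. It was among the most constant transcripts of the set, at 235, 222, 241 and 249 CPM in WT mice and 229, 236, 236, 233 and 235 CPM in AAV-shSCR mice. The log2 fold change was -0.018, with a 95% interval from -0.10 to 0.068. Of its 49-base stretches, 38.8% occur in another gene, mainly processed pseudogenes.

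The Hsp110 proteins gave 1 call. Hsph1 (ENSMUSG00000029657, chr5:149614287-149636376), which encodes Hsp105 and acts with Hsp70 to dissolve aggregates, was at 143, 131, 149 and 139 CPM in WT mice. AAV-shSCR SCA7 mice had 119, 124, 125, 120.2 and 126 CPM. The SCA7 mice were tightly grouped and all below the lowest WT mouse, by a log2 fold change of -0.19 (SE 0.053, edgeR adjusted p = 0.0200), under the 1.3-fold limit. None of its 49-base stretches occurs elsewhere. Leaving out WT replicate 3, the highest, gave -0.16 and an edgeR adjusted p of 0.0706.

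Hspa4l (ENSMUSG00000025757, chr3:40744495-40796103), a related Hsp110, was at 323, 321, 323 and 312 CPM in WT and at 291, 296, 299, 293 and 318 CPM in AAV-shSCR mice. Only replicate 5 of the SCA7 mice reached the WT range. The log2 fold change of -0.095 (SE 0.039) had an unadjusted p of 0.0273 and did not pass after adjustment by edgeR (0.116). Fitted with these 2 groups alone it did (edgeR adjusted p = 0.0471).

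Dnajb1 (ENSMUSG00000005483, chr8:83608193-83612653) encodes Hdj1, the J-domain protein that feeds clients to Hsp70 and is itself heat-inducible. It was at 44.2, 40.7, 42.8 and 41.9 CPM in WT mice and at 42.4, 43.5, 40.4, 44.2 and 44.2 CPM in AAV-shSCR mice. This was the single member above 0, with a log2 fold change of 0.018 and a 95% interval from -0.068 to 0.10. The groups lay on top of each other.

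Of the cytosolic Hsp90 genes, neither passed the test. Hsp90aa1 (ENSMUSG00000021270, chr12:110690605-110702728), the inducible isoform, was at 126, 125, 116 and 121 CPM in WT and 116, 111, 122, 114 and 123 CPM in AAV-shSCR mice, a log2 fold change of -0.054 (95% interval -0.14 to 0.037). Hsp90ab1 (ENSMUSG00000023944, chr17:45567775-45573271), the constitutive isoform, was at 1121, 1109, 1143 and 1138 CPM in WT and 1122, 1098, 1162, 1093 and 1090 CPM in AAV-shSCR mice, a change of -0.018 (-0.083 to 0.046). Both intervals stay within the 1.3-fold limit. Hsp90aa1 shares 47.7% of its 49-base stretches with other genes, and Hsp90ab1 3.63%.

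Hspb1 (ENSMUSG00000004951, chr5:135887919-135889563) encodes Hsp25, a small heat shock protein that some Purkinje cells express. At 2.22, 2.54, 1.74 and 2.42 CPM in WT and 2.09, 1.98, 1.36, 2.00 and 1.72 CPM in AAV-shSCR mice, it rested on 56 to 120 reads per library. The log2 fold change of -0.28 (SE 0.15, edgeR adjusted p = 0.238) had an interval from -0.61 to 0.042, which includes both 0 and the size of the Hspa1b fall. A pseudogene, Hsp25-ps1, shares 48.9% of its stretches.

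Hspa5 (ENSMUSG00000026864, chr2:34771970-34777547) encodes BiP, the Hsp70 of the ER lumen and the sensor partner of the unfolded protein response. It was at 292, 348, 374 and 374.5 CPM in WT mice and at 242, 290.0, 287, 266 and 234 CPM in AAV-shSCR mice. All SCA7 mice were below all WT mice, although WT replicate 1 (292) and SCA7 replicate 2 (290.0) almost met. The log2 fold change was -0.39 (SE 0.12, edgeR adjusted p = 0.0327). This call was the least stable of the 3: it was lost on leaving out any of WT replicates 2, 3 and 4 or AAV-shSCR replicates 1, 4 and 5 (edgeR adjusted p = 0.0624 to 0.0917) and with robust estimation of the spread (0.0860), while the change itself stayed between -0.47 and -0.36. None of its 49-base stretches occurs in another gene.

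**Figure D2:**
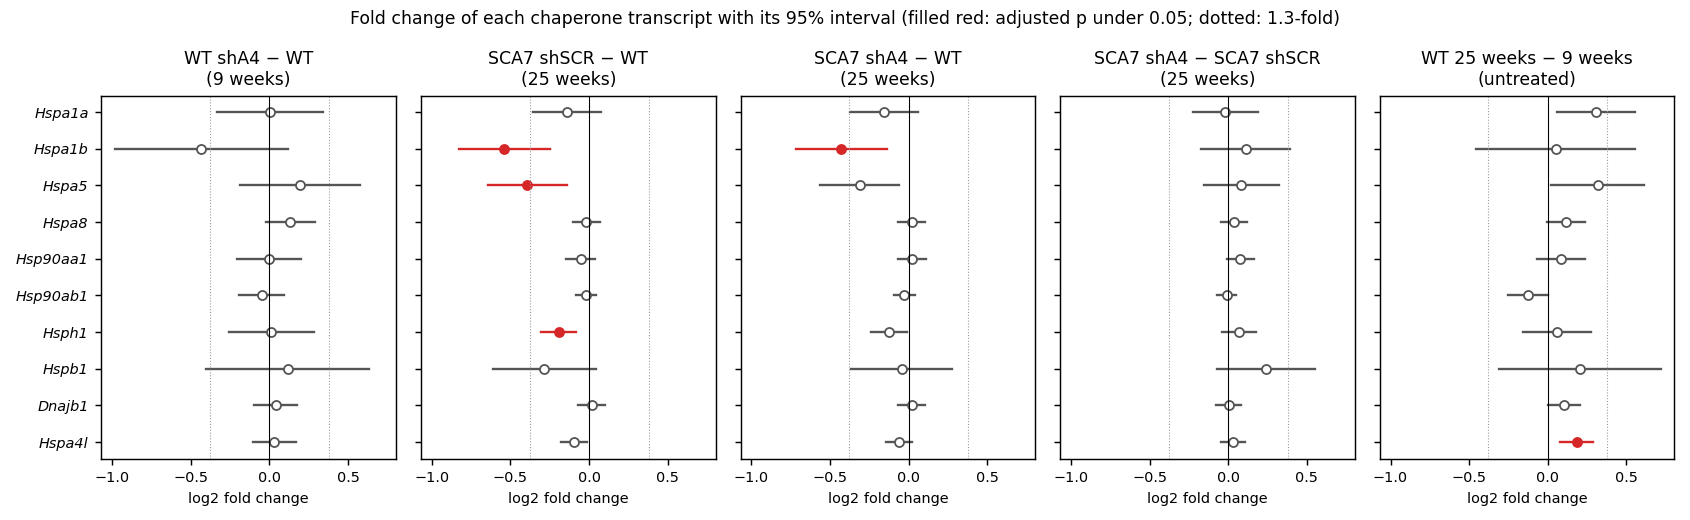
Log2 fold change (x axis) with its 95% interval for each of the 10 members in the 5 comparisons. Filled red points have an edgeR adjusted p under 0.05 and dotted lines mark 1.3-fold; these are Hspa1b, Hspa5 and Hsph1 in AAV-shSCR SCA7 against WT mice, Hspa1b in AAV-shA4 SCA7 against WT mice and Hspa4l between WT ages.

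Treated SCA7 mice were compared with the same WT mice, so this comparison and the last share their controls. In AAV-shA4 SCA7 mice, Hspa1b was lower, and it was the single member called: 1 of 10 past both limits (3.45% of all genes, 2.27% lower) and 1 of 10 by adjusted p alone (13.6% of genes, 8.11% lower). It was at 2.10, 2.84, 2.44, 2.07 and 1.86 CPM, with only replicate 2 above the lowest WT mouse, a log2 fold change of -0.43 (SE 0.14, edgeR adjusted p = 0.0487). No member had groups that did not overlap, against 13.4% of all genes. The call was lost on leaving out 7 of the 9 libraries in turn (edgeR adjusted p up to 0.167), with these 2 groups fitted alone (0.0871), with no filter on low counts (0.0634) and with the reads of Hspa1a and Hspa1b summed (0.0597).

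Hspa5 was spread widely in AAV-shA4 SCA7 mice, at 310.4, 224, 358, 225 and 281 CPM. Replicates 1 and 3 lay within the WT range and the other 3 below it. The log2 fold change of -0.31 (SE 0.12) did not pass the test (edgeR adjusted p = 0.0987). Hsph1, at 135, 119, 145, 117 and 127 CPM, had the same 2 mice highest and a change of -0.13 (SE 0.053, edgeR adjusted p = 0.138). Without replicate 3, the highest mouse for both genes, Hspa5 (-0.41, edgeR adjusted p = 0.0172) and Hsph1 (-0.17, edgeR adjusted p = 0.0217) would both be called. Leaving out WT replicate 1 also brought Hspa5 past the limit (-0.39, edgeR adjusted p = 0.0444).

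The other 7 members did not pass the test in AAV-shA4 SCA7 mice, with log2 fold changes from -0.16 (Hspa1a) to 0.023 (Hsp90aa1). Hspa8 was at 254, 218, 253, 237 and 238 CPM and Hspa4l at 306, 284, 334, 298 and 308 CPM, with replicate 3 of Hspa4l above every WT mouse. Dnajb1 (40.1 to 46.0 CPM) and Hsp90ab1 (1067 to 1158 CPM) covered the WT values on both sides. The median of the 10 was -0.054, beside 0.0061 for all genes.

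Whether shA4 itself moved the chaperones was addressed by AAV-shA4 against AAV-shSCR in SCA7 mice, where vector and genotype are the same. By edgeR, 0 of 10 members passed, 0 of 10 had an unadjusted p under 0.05 (8.22% of all genes did), and DESeq2 called 0; none of the 14862 genes tested passed either (0%). The groups overlapped for all 10 members, as for all but 1.49% of genes. Log2 fold changes were above 0 for 8 of 10, with a median of 0.053 beside 0.00021 for all genes. For the members lower in AAV-shSCR mice they were 0.11 for Hspa1b (95% interval -0.17 to 0.39), 0.084 for Hspa5 (-0.16 to 0.32) and 0.068 for Hsph1 (-0.039 to 0.17). All 3 intervals include 0. The falls of AAV-shSCR against WT mice have wide intervals too: -0.83 to -0.25 for Hspa1b, -0.65 to -0.14 for Hspa5 and -0.31 to -0.081 for Hsph1. Both comparisons use the same AAV-shSCR mice, so how far these members returned towards WT with shA4 is not settled here. Hspb1 had the largest difference of the 10, 0.24 (-0.072 to 0.55), with 1.77 to 2.5 CPM in AAV-shA4 mice.

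In the groups labelled 9 weeks, WT mice with AAV-shA4 were compared with untreated WT mice, which gives the change with AAV-shA4 in the absence of polyQ protein. No member was called by edgeR, 0 of 10 had an unadjusted p under 0.05 (11.1% of all genes did) and DESeq2 called 0; over all genes 0.0679% passed by adjusted p and 0.0543% past both limits. The groups of 3 overlapped for all 10 members, against 16% of genes that did not. Hspa1b had the largest difference, from 3.54, 3.50 and 1.79 CPM in untreated to 2.04, 2.57 and 1.93 CPM in AAV-shA4 mice (log2 fold change -0.43, SE 0.25, edgeR adjusted p = 0.551). Its interval ran from -0.98 to 0.12. It was -0.28 without untreated replicate 1, -0.29 without untreated replicate 2 and -0.69 without untreated replicate 3, and -0.21 (SE 0.15) with the reads of Hspa1a and Hspa1b summed. Untreated replicates 1 and 2 were above every AAV-shA4 mouse and untreated replicate 3 below every one.

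Hspa5 at 9 weeks was at 315, 311 and 211 CPM in untreated mice and 401, 319 and 239 CPM in AAV-shA4 mice (log2 fold change 0.19, SE 0.17). Replicate 3 was the lowest mouse in both groups for 9 of the 10 members, all but Hspa1a. Hsph1, at 151, 146 and 109 CPM in untreated and 153, 141 and 114 CPM in AAV-shA4 mice, fell below the AAV-shSCR SCA7 values of 25 weeks in those 2 WT mice. For Hsph1 and Hspa5 the range between WT mice of 1 group at 9 weeks was thus larger than the difference between the SCA7 and WT means at 25 weeks. Median change was 0.021 over the members.

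Between untreated WT mice of 25 and 9 weeks, 1 of 10 members was higher by edgeR's adjusted p (11.9% of genes were higher, 23% changed in either direction) and 0 of 10 past both limits (5.14% of genes), also with DESeq2. Unadjusted, 4 of 10 had a p under 0.05, as did 36.8% of genes. Age, cohort and library preparation cannot be told apart here. Hspa4l rose from 301, 284 and 261 CPM to 323, 321, 323 and 312 CPM, a log2 fold change of 0.18 (SE 0.047, edgeR adjusted p = 0.0202), and the call was lost without WT replicate 3 of 25 weeks (0.0528). Hspa1a, at 2.74, 2.79 and 2.61 CPM at 9 weeks, and Dnajb1, at 40.1, 40.6 and 37.9 CPM, also had groups that did not overlap (3 of 10 did, all higher, against 16.7% of genes higher and 33.8% in either direction), with changes of 0.31 (SE 0.11, edgeR adjusted p = 0.0743) and 0.10 (SE 0.045, edgeR adjusted p = 0.122). Hspa5 changed by 0.32 (SE 0.13, edgeR adjusted p = 0.114) with overlapping groups, and it passed without WT replicate 1 of 25 weeks (0.39, edgeR adjusted p = 0.0418). Without replicate 3 of 9 weeks it was 0.15 (edgeR adjusted p = 0.284). Hsp90ab1 was the one member below 0, from 1324, 1260.3 and 1106 CPM to 1109 to 1143 CPM (-0.12, SE 0.057, edgeR adjusted p = 0.145). Leaving out replicate 3 of 9 weeks took it past the limit (-0.20, edgeR adjusted p = 0.0126), and leaving out replicate 1 of 9 weeks gave -0.066 (edgeR adjusted p = 0.472). The median change was 0.11 over the members and 0.0058 over all genes.

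The wider chaperone network was examined in 7 lists of 78 genes that exclude the 10 members, of which 76 were tested. In AAV-shSCR SCA7 mice 15 passed by adjusted p, 4 higher and 11 lower (19.7%, beside 15.5% of all genes), and the median change was -0.061 on the log2 scale. In AAV-shA4 SCA7 mice 12 passed, 3 higher and 9 lower (15.8%, beside 13.6%), and the median was -0.054; without WT replicate 2, 3 or 4 the count fell to 6 or 7. Between the SCA7 groups, and at 9 weeks, edgeR and DESeq2 called 0 network genes. The lists that follow are small, with 4 to 17 genes each. Beside them, 8.65% of all genes were lower and 6.89% higher with AAV-shSCR, and 8.11% lower and 5.47% higher with AAV-shA4.

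Among heat shock factors, 0 of 4 passed in AAV-shSCR mice. Hsf1, the master factor of the heat shock response, had a log2 fold change of -0.022 there and was lower in AAV-shA4 SCA7 mice (-0.15, SE 0.042, edgeR adjusted p = 0.0222); the difference between the SCA7 groups was -0.13 (edgeR adjusted p = 0.483). Of the other Hsp70 and Hsp110 genes, 1 of 9 was higher and 1 lower in both SCA7 groups: Hspa2, an Hsp70 best known from the testis, rose by 0.30 (SE 0.083) with AAV-shSCR and 0.35 (SE 0.083) with AAV-shA4. Hspa12a, a distant brain-enriched relative, fell by 0.28 (SE 0.036) and 0.25 (SE 0.036).

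J-domain genes were lower in 3 of 16 (8.65% of all genes) and higher in 1 of 16 (6.89%) with AAV-shSCR. Dnajb2, a neuronal J-domain protein that acts with Hsp70 on ubiquitylated clients, fell by 0.19 (SE 0.030) and Dnaja4 by 0.17 (SE 0.039). Dnajc5, the synaptic vesicle protein cysteine string protein, fell by 0.11 (SE 0.024), while Dnajb5 rose by 0.23 (SE 0.037). In AAV-shA4 mice Dnajb2 (-0.20), Dnajc5 (-0.090) and Dnajb5 (0.12) were called in the same directions.

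Of 17 Hsp90 partners and co-chaperones, 4 were lower (8.65% of all genes) and 0 higher (6.89%) with AAV-shSCR. They included Hspbp1, an Hsp70 nucleotide exchange factor (-0.15, SE 0.049), Stip1, which links Hsp70 to Hsp90 (-0.12, SE 0.039), and Trap1, the mitochondrial Hsp90 (-0.11, SE 0.029). With AAV-shA4, 3 were lower: Stip1 (-0.12), Bag1 (-0.11), an exchange factor, and Stub1 (-0.10), the ubiquitin ligase CHIP. Cryab, the small heat shock protein alpha-B crystallin of oligodendrocytes and astrocytes, was the 1 of 5 tested small heat shock proteins that passed, falling by 0.30 (SE 0.058, edgeR adjusted p = 0.00186) with AAV-shSCR and 0.27 (SE 0.058) with AAV-shA4. Chaperonins, the ring complexes that fold actin, tubulin and mitochondrial proteins, hardly moved: 0 of 9 passed with AAV-shSCR, with changes from -0.051 to 0.073, and Cct2 alone was higher with AAV-shA4 (0.086, SE 0.024).

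The ER stress list, 16 genes, had 2 lower and 2 higher in AAV-shSCR SCA7 mice (8.65% and 6.89% of all genes). In this list 13 of 16 lay below 0, beside 49.5% of all genes, with a median of -0.12. Sdf2l1, an ER protein that works with BiP and J-domain partners, fell by 0.70 (SE 0.18, edgeR adjusted p = 0.0160), the largest fall of the network. It was at 9.65, 13.4, 12.9 and 12.5 CPM in WT mice and 6.72, 8.66, 8.47, 8.41 and 5.08 CPM in AAV-shSCR mice, without overlap. Ddit3 (CHOP), the death-related factor of ER stress, fell by 0.25 (SE 0.070). The stress sensors Ern1 (IRE1) and Eif2ak3 (PERK) rose by 0.22 (SE 0.055) and 0.17 (SE 0.043). In AAV-shA4 mice Sdf2l1 was the single gene called (-0.57, SE 0.18, edgeR adjusted p = 0.0484).

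**Figure D3:**
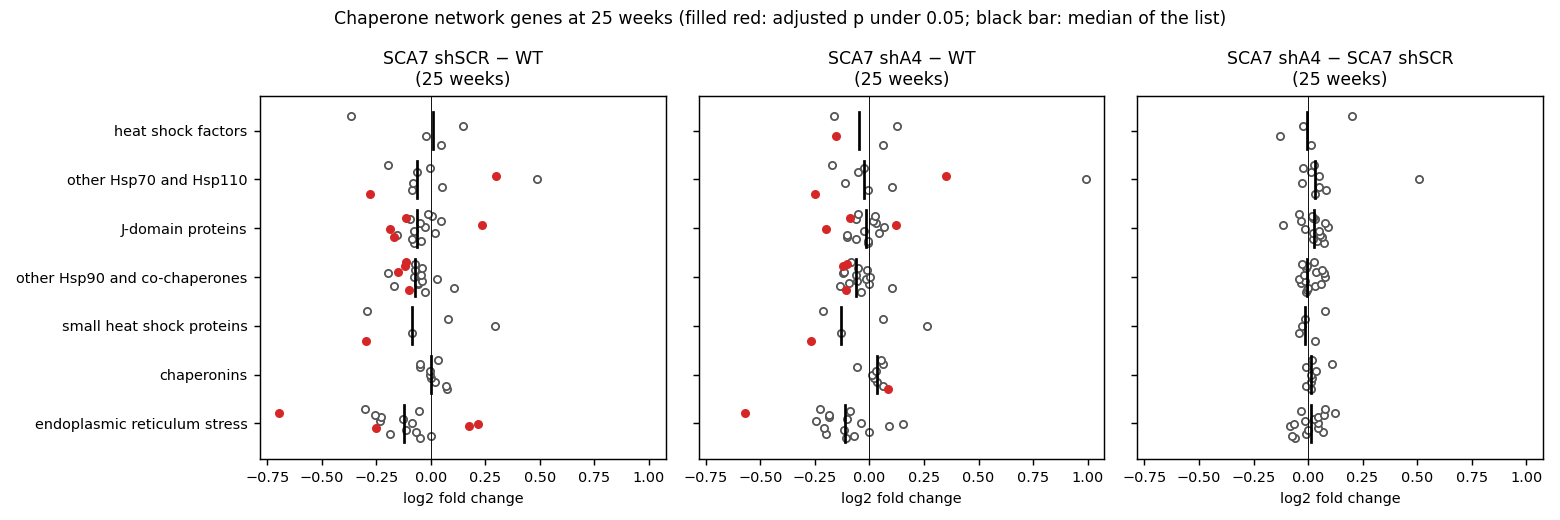
Log2 fold change of the tested network genes in 7 lists (1 point per gene, black bar for the median of the list) in the 3 comparisons at 25 weeks. Filled red points have an edgeR adjusted p under 0.05; there are 15, 12 and 0 of them from left to right.

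Between untreated WT mice of 25 and 9 weeks, 12 network genes passed, 6 in each direction (15.8%, beside 23% of all genes). Age, cohort and library preparation cannot be told apart in these differences. The median change over the network was 0.00092 on the log2 scale. The count was 5 to 7 when WT replicate 3 or 4 of 25 weeks or replicate 1 or 2 of 9 weeks was left out. Higher at 25 weeks were, among others, the co-chaperones Bag3 (0.31, SE 0.080), which directs aggregates to autophagy, and Bag4 (0.14, SE 0.042), and the J-domain genes Dnajc3 (0.27, SE 0.063), Dnajb14 (0.20, SE 0.048) and Dnaja4 (0.13, SE 0.042). Lower were Hspa1l (-1.15, SE 0.33), Hspb6 (-0.30, SE 0.095), Hsbp1 (-0.25, SE 0.045), Cryab (-0.22, SE 0.050), Dnajb5 (-0.14, SE 0.039) and Cct2 (-0.11, SE 0.033).

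Some members rose and fell together among mice of the same group. After group means were subtracted from log2 CPM, 28 of the 45 pairs of members had a positive Pearson correlation over the 14 mice of 25 weeks (median 0.16), and 39 of 45 over the 6 mice of 9 weeks (median 0.74). Correlations above 0.5 were found for 15 and 32 pairs. These points share their libraries, and the values are descriptions. The same shares over pairs of all genes are not given here. At 9 weeks, replicate 3 was the lowest mouse of both groups for every member but Hspa1a. How far the values of 9 weeks rest on that mouse of each group was not tested. At 25 weeks the pairs most alike were Hsph1 with Hspa4l (0.77), Hspa8 with Hsph1 (0.75), and Hspa5 with Hsp90ab1 (0.73). Hspa1a was the member apart, with Hspa8 (-0.61) and Hspa4l (-0.54) at the low end.

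Hspa5 varied together with many, but not all, of the other ER genes examined. Of 11360 genes with a mean of at least 5 CPM, those with the highest correlation to Hspa5 within groups over the 14 mice were Pdia6 (r = 0.99), Hyou1 (0.97), Calr (0.96), Xbp1 (0.95) and Pdia3 (0.95). Pdia6 and Pdia3 are protein disulfide isomerases, Hyou1 is the ER Hsp110, Calr is the lectin chaperone calreticulin, and Xbp1 is a transcription factor of the unfolded protein response. Over the 6 mice of 9 weeks, which were not used for this choice, the same 5 genes had correlations of 0.96 to 1.00. Of 22 ER genes from the lists, 13 exceeded 0.75 at 25 weeks. These 13 also did so at 9 weeks, and so did Atf6 and Dnajb9 (0.84). High values were frequent at 9 weeks, where the median over the 45 pairs of members was 0.74. The share of all 11360 genes above 0.75 is not given here, and the values of 9 weeks rest on 6 mice. Among those that did not exceed 0.75 at 25 weeks were the stress sensors Eif2ak3 (0.55) and Ern1 (-0.018), and Atf6 (0.33). Another was Atf4 (-0.22), a stress factor that responds to several kinases. At 9 weeks the values were 0.70 for Eif2ak3, -0.74 for Ern1, 0.97 for Atf6 and -0.53 for Atf4.

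For Hsp90b1, the ER Hsp90 (Grp94), the relation was tested, as 1 of 8 pairs chosen with earlier results of these data known. Its correlation with Hspa5 was r = 0.89 and rho = 0.77 over the 14 mice (permutation test within groups, two-sided, adjusted p over 8 pairs of 0.00976 and 0.0341), and 0.98 over the 6 mice of 9 weeks (exact permutation p = 0.0278, the smallest that design can give, adjusted 0.111). Without the 2 mice farthest from the median of Hspa5 it was 0.81 (permutation test, adjusted p = 0.0956), which no longer passed after adjustment. Hsp90b1 itself had a log2 fold change of -0.20 with AAV-shSCR (SE 0.086, edgeR adjusted p = 0.144).

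**Figure D4:**
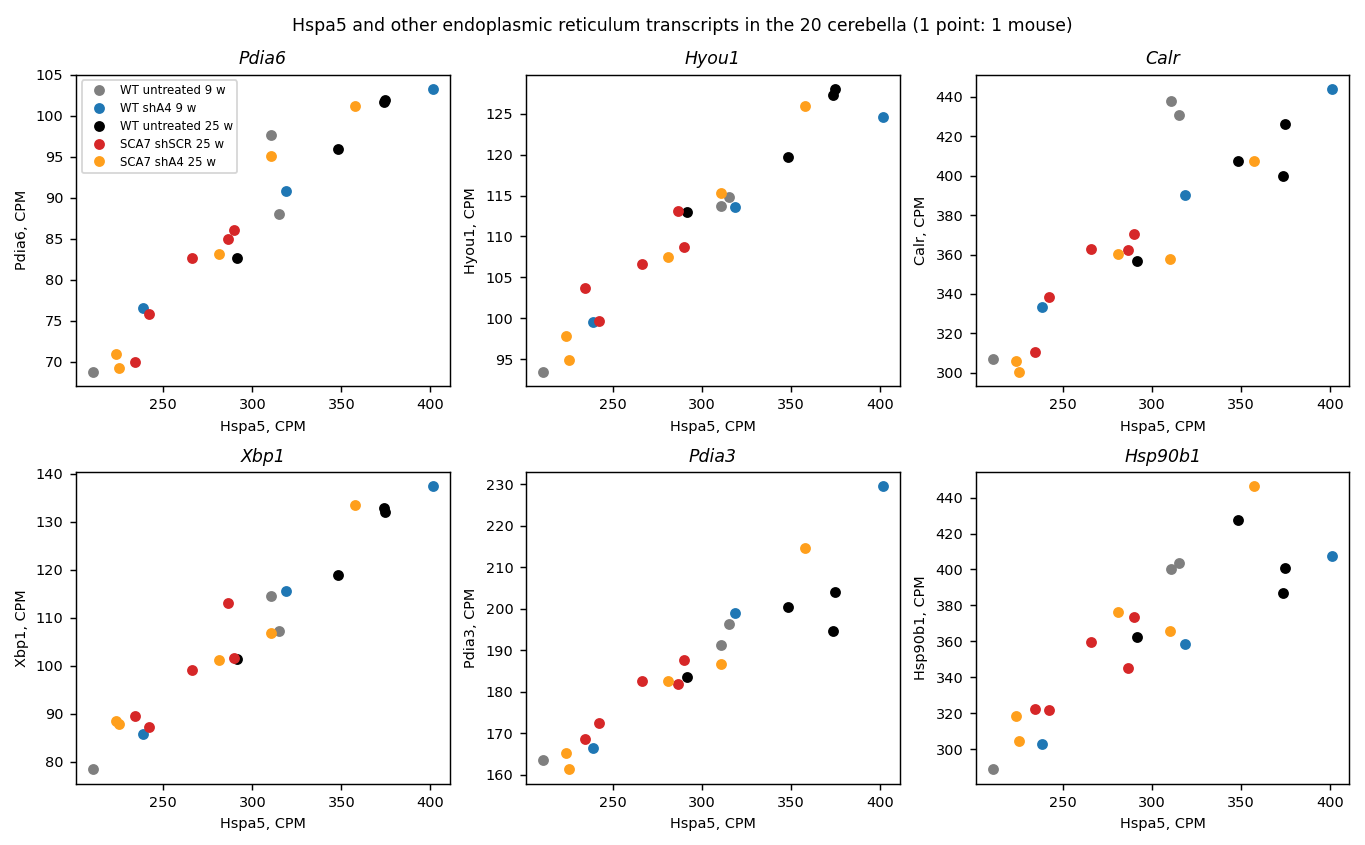
CPM of 6 ER genes (y axis) against CPM of Hspa5 (x axis), 1 point per mouse, coloured by group (20 mice). Pdia6, Hyou1, Calr, Xbp1 and Pdia3 are the 5 genes most alike to Hspa5 at 25 weeks. Within groups, mice with more Hspa5 mostly have more of these genes, and groups are offset in places. Untreated WT replicate 1 of 9 weeks had 431 CPM of Calr at 315 CPM of Hspa5. AAV-shA4 SCA7 replicate 1 had 358 CPM of Calr at 310.4 CPM of Hspa5.

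In AAV-shA4 SCA7 mice, replicate 3 (358 CPM of Hspa5) also had the most Pdia6 (101.2 CPM), Hyou1 (126) and Xbp1 (134), and replicates 2 and 4 (224 and 225 CPM) the least, with 70.9 and 69.3 CPM of Pdia6. In untreated WT mice of 9 weeks, replicate 3 (211 CPM) had 68.8 CPM of Pdia6 against 88.0 and 97.6 CPM. None of these 5 genes was called in AAV-shSCR against WT mice, with changes of -0.26 (SE 0.10) for Pdia6, -0.20 (SE 0.067) for Hyou1, -0.19 (SE 0.079) for Calr, -0.30 (SE 0.11) for Xbp1 and -0.13 (SE 0.064) for Pdia3 and edgeR adjusted p-values from 0.0592 to 0.192. The ER stress element of Hspa5 was also found upstream in 6 of the 17 other ER genes that had a promoter, against 0.113% of all promoters. The sites follow, so that they can be set beside that of Hspa5. Capitals mark the letters that define the motif, each is read on the strand of its gene, and a site that begins with CGTGG is the motif on the other strand.
Hspa5, chr2:34772025-34772043: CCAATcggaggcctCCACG
Pdia6, chr12:17266491-17266509: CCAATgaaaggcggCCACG
Calr, chr8:84847075-84847093: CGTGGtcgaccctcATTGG
Canx, chr11:50325800-50325818: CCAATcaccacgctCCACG
Creld2, chr15:88819520-88819538: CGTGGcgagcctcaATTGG
Hsp90b1, chr10:86705638-86705656: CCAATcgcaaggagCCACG
Hsp90b1, chr10:86705533-86705551: CGTGGtgaggcacgATTGG
Dnajc3, chr14:118937827-118937845: CCAATcagcgccaaCCACG

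Of the 5 genes most alike to Hspa5, Pdia6 and Calr had the element, and Xbp1 and Pdia3, whose promoters were searched, did not. Hsp90b1 had it at 2 sites. The spacer within the motif differed from site to site.

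Hsph1 was set beside a second kind of stress gene. Cirbp and Rbm3 encode cold-inducible RNA-binding proteins, whose transcripts rise when temperature falls, opposite to heat shock genes. Both were higher in AAV-shSCR SCA7 than in WT mice: Cirbp by 0.34 (SE 0.088, edgeR adjusted p = 0.0148) and Rbm3 by 0.33 (SE 0.059, edgeR adjusted p = 0.00104). Cirbp was at 71.8, 84.8, 75.1 and 74.1 CPM in WT and 101.1, 84.1, 102.6, 103.1 and 91.8 CPM in AAV-shSCR mice, where replicate 2 alone fell within the WT range. With AAV-shA4 Cirbp was higher by 0.28 (SE 0.088, edgeR adjusted p = 0.0433), at 88.0, 114, 77.8, 93.7 and 90.5 CPM, and Rbm3 by 0.13 (SE 0.059, edgeR adjusted p = 0.158). No tissue or body temperature is given in the labels.

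The pairs tested here belong to the same 8, chosen with earlier results of these data known. Within groups, mice with more Hsph1 had less Cirbp (r = -0.74, rho = -0.70, 14 mice, permutation test within groups, adjusted p = 0.0334 and 0.0341). The 6 mice of 9 weeks gave r = -0.75 (exact permutation p = 0.0833, adjusted 0.167). The relation did not pass after adjustment on CPM without log (-0.72, permutation test, adjusted p = 0.0542), without the 2 mice farthest from the median of Hsph1 (-0.74, permutation test, adjusted p = 0.0956), or when any 1 of 6 mice was left out. Hsph1 with Hspa8 had r = 0.75 and rho = 0.80 (permutation test, adjusted p = 0.0698 and 0.0341), and 0.97 at 9 weeks. Hsph1 with Dnajb1 had r = 0.62 (permutation test, adjusted p = 0.0878), Hsp90aa1 0.50 (0.237), Rbm3 0.23 (0.688), Hspa1b -0.20 (0.688) and Per2, a clock gene, 0.12 (0.713).

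**Figure D5:**
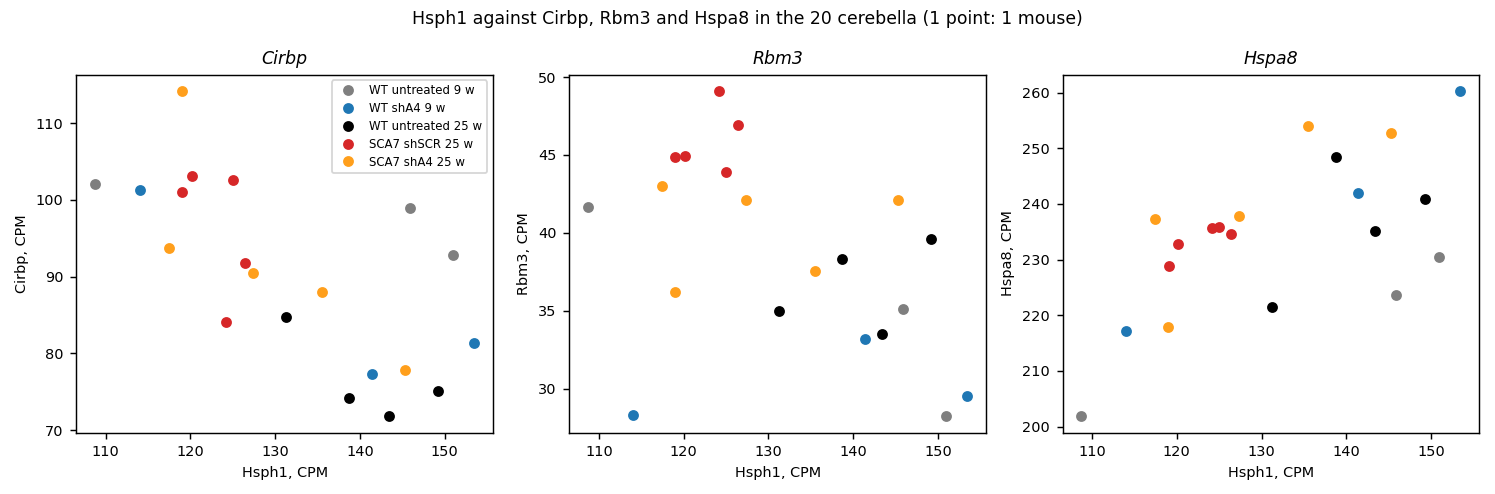
CPM of Cirbp, Rbm3 and Hspa8 (y axes) against CPM of Hsph1 (x axes), 1 point per mouse, coloured by group (20 mice). In the panel of Cirbp the mice of 25 weeks with the most Hsph1 have the least Cirbp; in that of Hspa8 both rise together.

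The 5 genes most alike to Hsph1 over the 14 mice were Bmpr2 (r = 0.91), Rab30 (0.91), Ppp1cb (0.90), Fgfr1op2 (0.90) and Hecw1 (0.90), with 0.78 to 0.87 over the 6 mice of 9 weeks. None is a chaperone of the lists used here.

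Other transcripts also differed between SCA7 and WT mice at 25 weeks, where the SCA7 allele and the AAV cannot be told apart. In whole cerebellum, fewer cells of a type and less RNA per cell cannot be told apart either. The marker counts stand beside 8.65% of all genes lower and 6.89% higher with AAV-shSCR. With AAV-shA4 the shares were 8.11% lower and 5.47% higher. All 10 Purkinje cell markers were lower in both SCA7 groups, with a summed level of 10098 to 11419 CPM in WT, 7031 to 7871 CPM in AAV-shSCR and 7115 to 8320 CPM in AAV-shA4 mice and none at 0. Of 8 oligodendrocyte markers, 4 were lower in each SCA7 group (5549 to 6582 CPM in WT, 4081 to 4907 CPM in AAV-shSCR and 4526 to 5150 CPM in AAV-shA4 mice). Granule cell markers (2 of 8 lower in each), interneuron markers (2 of 5 lower in each), Bergmann glia and astrocyte markers (2 and 3 of 8 lower) and microglia (0 of 8) moved less, and endothelial and mural markers went both ways (2 higher and 3 lower of 10 with AAV-shSCR, 2 higher and 4 lower with AAV-shA4). None of the choroid plexus, ependyma and meninges markers passed in the SCA7 groups, though the summed choroid plexus level ran from 49 to 3810 CPM over the libraries of 25 weeks. Blood markers had 1 of 5 higher with AAV-shSCR. The part of these markers in the chaperone results was not tested.

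State genes were read in the same way and beside the same shares in the SCA7 groups. At 9 weeks 0.0679% of all genes passed in either direction. Between WT ages 11.9% were higher and 11.1% lower at 25 weeks. Of 9 tested immediate early genes, 3 were lower with AAV-shSCR (Fosb, -1.22; Nr4a1, -0.60; Egr1, -0.49) and 2 with AAV-shA4. Among 11 clock genes, 1 was lower in each SCA7 group, 1 was higher with AAV-shA4 at 9 weeks (Per2, 0.89, SE 0.081), and 6 were higher and 3 lower at 25 than at 9 weeks. The glucocorticoid targets had 0 of 4 called with AAV-shSCR and 1 of 4 with AAV-shA4, Fkbp5, a Hsp90 co-chaperone (0.50, SE 0.13). Their part in the chaperone values was not tested either.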

How the data were processed

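RNA-seq was performed on 20 mouse cerebella (Illumina Stranded mRNA Prep, 50-base single reads). Per the submitters' processing notes and methods, the authors used bcl2fastq 2.20.0.422, cutadapt 1.10 (reads under 40 bases dropped), Bowtie2 2.2.8, STAR 2.5.3a on mm10 and HTSeq 0.6.1p1 with Ensembl 102. The deposited values are raw read counts per gene. Whether the counting used strand is not given in the sources used here.

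Protein-coding genes of GENCODE M21 kept by filterByExpr (minimum count 10, total 15) were fitted in edgeR 4.0.16 (R 4.3.3; TMM, quasi-likelihood test, Benjamini-Hochberg over all genes tested). The 6 libraries of 9 weeks, the 14 of 25 weeks and the 7 of untreated WT mice were fitted separately. Of 14733, 14862 and 14875 genes tested, the common coefficients of variation were 0.0729, 0.0790 and 0.0784. Fits were also run on simulated data, but the outcome is not given here, so the power for changes of the reported size is not stated. Replicates differed by more than counting noise in all 32 pairs compared (chi-square per degree of freedom 4.72 to 22.7). Intervals are 95%. Levels per kb used the longest APPRIS principal transcript. Correlations used log2(CPM + 0.1) with group means subtracted and 100000 permutations within groups. Shared stretches of 49 bases were counted over 141767 GENCODE transcripts. Promoters are from RefSeq (GRCm38.p6).

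The 10 members, the gene lists and the 8 correlated pairs were chosen with earlier results of these data known. All members were named; of the lists, up to 3 genes with the largest positive and 3 with the largest negative change per list and comparison among those with adjusted p under 0.05; and the 5 genes most alike to Hsph1 and to Hspa5. One list gene, Cct6a, had no protein-coding entry and 1 small heat shock gene was not tested. Alternatives were RLE size factors, DESeq2 1.42.0, no filter on low counts, all annotated genes, robust estimation, 2 groups alone, a replicate block and leaving out each library.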

Additional observations from a re-analysis of the deposited data

How the results depend on the processing

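Libraries of 31465586 counts and more leave Hspa1a, Hspa1b and Hspb1, at 1.23 to 3.66 CPM, on 56 to 177 reads each, and groups of 3 to 5 mice limit every test. The 3 falls in AAV-shSCR against WT mice kept their direction under every alternative and with each library left out.

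Of the counts, those of AAV-shSCR against WT mice moved past both limits to 1 with robust estimation, and to 25 network genes with the 2 groups fitted alone. In AAV-shA4 SCA7 against WT mice 0 members were called by either rule with the 2 groups alone or with no filter on low counts. Between WT ages DESeq2 called 19 network genes. Leaving out 1 library each gave, in AAV-shSCR against WT mice, 0 to 2 members past both limits (0 without WT replicate 2; 1 without WT replicate 3 or 4 or AAV-shSCR replicate 1, 4 or 5) and 1 to 3 by adjusted p. In AAV-shA4 against WT mice it gave 0 to 2 by either rule and 6 to 16 network genes, and between WT ages 0 to 1 past both limits, 0 to 2 by adjusted p and 5 to 11 network genes. At 9 weeks and between the SCA7 groups all counts stayed at 0.

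Replicate numbers did not pair the samples: same-numbered mice correlated from -0.31 to 0.55, and not every pair exceeded 0.1. With a replicate block 1 member was past both limits in AAV-shSCR against WT mice, 7 network genes passed in AAV-shA4 against WT mice, and 0 members and 2 network genes between WT ages.

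Single changes near 0 turned sign with a library left out: Hspa5 at 9 weeks (-0.0043 to 0.37) and between SCA7 groups (-0.019 to 0.15), Hspa8 (-0.047 to 0.0060) and Hsf1 (-0.048 to 0.0085) in AAV-shSCR mice, and Hsp90aa1 (-0.0040 to 0.047) in AAV-shA4 mice. Of the 24 member changes not given singly, 18 turned sign under some setting, the largest of them being 0.21. Of 37 called network changes named, 22 lost their call under some setting and 0 changed direction.

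Among correlations at 25 weeks, leaving out 1 mouse gave for Hsph1 0.70 to 0.84 with Hspa8, -0.47 to 0.053 with Hspa1b, 0.40 to 0.77 with Dnajb1, -0.82 to -0.62 with Cirbp and -0.12 to 0.44 with Per2, and 0.83 to 0.92 for Hspa5 with Hsp90b1. Over the 6 mice of 9 weeks Hsph1 correlated at 0.81 with Hspa1b and -0.50 with Rbm3, both of opposite sign, and -0.75 with Cirbp, and Hspa5 at 0.98 with Hsp90b1. Hsph1 with Cirbp was -0.72 on CPM without log and -0.74 without the 2 farthest mice, and Hspa5 with Hsp90b1 was 0.81 there. The cause of these differences was not tested.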
